A study of Mus musculus with 7 samples.

Results

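The GIMAP genes (GTPases of the immunity-associated protein family) were followed across regulatory T (Treg) cells that had or lacked Hpgd, the enzyme that oxidises and inactivates prostaglandins. The members were the 8 genes of the expression table with the symbols Gimap1, Gimap3, Gimap4, Gimap5, Gimap6, Gimap7, Gimap8 and Gimap9, out of 15815 genes listed. All 8 passed the filter on low values, as did 11787 genes in all. Values came from 7 RNA-seq libraries of YFP+ cells sorted from the mesenteric lymph nodes (mLN) of Rag-/- mice, hosts without T and B cells of their own. The hosts had been injected 8 weeks earlier with naive T cells and Treg cells that were both WT, together with YFP+ Treg cells that were WT (4 libraries, WT 1 to 4) or Hpgd-deficient (3 libraries, KO 1 to 3). The labels give the strain C57BL/6JRcc and the line Hpgd fl; Foxp3-YFP-Cre for every library, WT included, so deletion depends on Cre made where Foxp3 is expressed. Age and sex of the mice were not used here. Whether the libraries of a group stem from different hosts is not stated in the labels, and a p-value here reflects only how these samples scatter, which may in part be technical.

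GIMAP proteins are GTP-binding proteins that sit mostly on the membranes of lymphocyte organelles and share a nucleotide-binding domain related to that of septins. They are best known as regulators of lymphocyte survival, since animals without Gimap5 or Gimap1 lose peripheral T cells. In mammals the genes lie next to each other in 1 cluster, and they are most active in T cells, B cells and natural killer cells, with some members also found in endothelium.

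In the mouse genome the cluster ran over 123.6 kb of chromosome 6, from 48647234 to 48770851 (GENCODE M21, build GRCm38, the assembly of mm10). In order along the chromosome it held Gimap8, Gimap9, Gimap4, Gimap6, Gimap7, Gimap1, Gimap5 and Gimap3. Gimap6 and Gimap3 lay on the minus strand and the other 6 genes on the plus strand. All are annotated as protein-coding, with coding lengths from 873 bases (Gimap9) to 2064 bases (Gimap8). Gimap8 is the one member known to carry several GTP-binding domains in a row.

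Gimap3 and Gimap5 were the closest relatives in sequence, which matters for their counts. Their coding sequences were identical at 90.4% of aligned bases, and the other 27 pairs at 55.8% to 73.9%. A stretch of 140 coding bases was the same in both, inside 1 exon of each gene. It is shown with 30 bases on each side, 5′ to 3′ on the coding strand (minus for Gimap3, plus for Gimap5), and capitals mark the 4 bases that differ:
Gimap3 chr6:48765651-48765850: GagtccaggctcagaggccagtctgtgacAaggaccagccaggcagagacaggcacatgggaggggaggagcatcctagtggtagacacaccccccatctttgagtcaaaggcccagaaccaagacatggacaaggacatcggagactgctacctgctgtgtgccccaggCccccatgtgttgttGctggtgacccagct
Gimap5 chr6:48752654-48752853: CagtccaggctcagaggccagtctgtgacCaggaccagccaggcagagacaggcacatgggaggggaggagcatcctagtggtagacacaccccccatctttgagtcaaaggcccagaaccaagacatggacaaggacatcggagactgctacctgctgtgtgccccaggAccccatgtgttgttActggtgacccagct
Of all runs of 31 bases in the Gimap3 transcripts 13.2% also occurred in Gimap5 transcripts, and 8.02% of those of Gimap5 occurred in Gimap3. No other pair of members shared a run of this length. A read from such a stretch cannot be placed by sequence alone, so the levels of Gimap5, the less abundant of the pair, are uncertain to that extent. Gimap1 shared 38.2% of its runs with genes outside the family, mostly with the antisense transcript Gimap1os. The protocol named in the labels does not mark strand, so reads from Gimap1 and Gimap1os cannot be told apart. The annotated gene Gm28053 overlaps exons of Gimap7, Gimap1 and Gimap5 on the same strand. Neither Gimap1os nor Gm28053 was analysed here.

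Upstream sequence was found in RefSeq (GRCm38.p6) for all 8 members. Windows from 250 bases before to 50 after each annotated start were searched on both strands for TGTGGT (the core site of Runt factors), TGTTTAC (forkhead), CAGGAAGT (ETS), an interferon regulatory factor (IRF) motif, and for the core promoter box TATAAA. The Runt core was found in Gimap4, Gimap7 and Gimap1, against 16.8% of all 32851 windows. The ETS motif was found in Gimap9 and Gimap5 (3.33% of all windows), the forkhead motif in Gimap3 (3.65%) and the core promoter box in Gimap6 (13.6%). No window held the IRF motif (3.44% of all windows), and both windows of Gimap8 held none of these letters. A match describes letters only, and draws no link to a factor. The 250 bases upstream of Gimap4, the member with the highest level per exonic length, and of Gimap1 and Gimap8, whose levels moved most in opposite directions, are shown 5′ to 3′ on the plus strand, where capitals mark the Runt core, read here on the opposite strand:
Gimap1 chr6:48738797-48739046: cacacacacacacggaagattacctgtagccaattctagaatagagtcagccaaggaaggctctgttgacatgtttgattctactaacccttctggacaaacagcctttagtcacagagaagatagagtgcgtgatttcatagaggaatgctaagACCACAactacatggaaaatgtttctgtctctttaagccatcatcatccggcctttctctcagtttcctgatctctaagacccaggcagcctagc
Gimap4 chr6:48684328-48684577: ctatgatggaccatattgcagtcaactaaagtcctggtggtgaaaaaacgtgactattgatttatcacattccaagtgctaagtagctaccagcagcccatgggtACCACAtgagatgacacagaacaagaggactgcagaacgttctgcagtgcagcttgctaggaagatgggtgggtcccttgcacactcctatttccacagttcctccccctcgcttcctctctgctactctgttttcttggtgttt
Gimap8 chr6:48646984-48647233: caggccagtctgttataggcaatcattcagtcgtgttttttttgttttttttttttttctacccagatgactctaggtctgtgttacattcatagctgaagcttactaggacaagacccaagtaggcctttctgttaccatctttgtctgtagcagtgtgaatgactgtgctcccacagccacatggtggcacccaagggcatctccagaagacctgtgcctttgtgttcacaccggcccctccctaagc

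The 7 libraries held between 4135733 (KO 3) and 10622507 (WT 4) reads in listed genes. Levels are normalized counts, the deposited value minus its offset of 1. WT 2 and KO 3 lay farthest apart on the first principal component, and ribosomal protein genes took 7.76% of the reads of WT 2 against 4.49% in the lowest library. The targeted gene Hpgd had a mean of 13.0 ± 4.08 over the 4 WT libraries and of 2.90 ± 2.41 over the 3 KO libraries (SD), without overlap and on few reads. Foxp3, which encodes the defining Treg transcription factor, stood at 107 ± 42.7 in the WT and 124 ± 17.5 in the KO group. Other defining genes were abundant, with a mean of 10189 for Ikzf2, 5345 for Ctla4 and 4529 for Il2ra over the 7 libraries.

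Gimap genes were among the most abundant transcripts of these Treg cells. Together they took between 0.598% (WT 2) and 0.681% (KO 3) of all reads, and the 95% Wilson intervals of these shares reached at most 0.00793 percentage points to either side. The family sum was 47455 ± 2420.1 (SD, n = 4) in WT, with libraries from 44379 to 50296, and 48986 ± 2558 (SD, n = 3) in KO, with libraries from 46803 to 51801. The groups overlapped, and the highest sum was 1.17 times the lowest. Gimap3, Gimap4 and Gimap6 made up 68.7% to 70.6% of the family sum in every library. Intervals from reads cover counting error only, since amplified reads without molecular identifiers are not independent molecules.

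Levels of different genes were compared per kb of exonic length, taking the union of annotated exons. The mean over 7 libraries was 5749 ± 406 normalized counts per kb for Gimap4 and 4963 ± 299 for Gimap3. Gimap6 followed at 2935 ± 325 and Gimap7 at 2211 ± 229. Gimap9 was at 1458 ± 125 and Gimap1 at 1323 ± 165. The lowest were Gimap8 at 467 ± 155 and Gimap5 at 282 ± 22.4. On this scale Gimap4 ranked 39th and Gimap3 44th of 11624 tested genes with an annotated length, whose median was 47.6 per kb. For comparison on the same scale, the T cell receptor complex genes Cd3d, Cd3g and Cd3e were at 4059, 3099.8 and 591. Ctla4 was at 2294, Cd4 at 1054, Ikzf2 at 877, Il2ra at 793 and Foxp3 at 24.9. Only 11.7% of these genes lay above Gimap5, the lowest member.

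**Figure D1:**
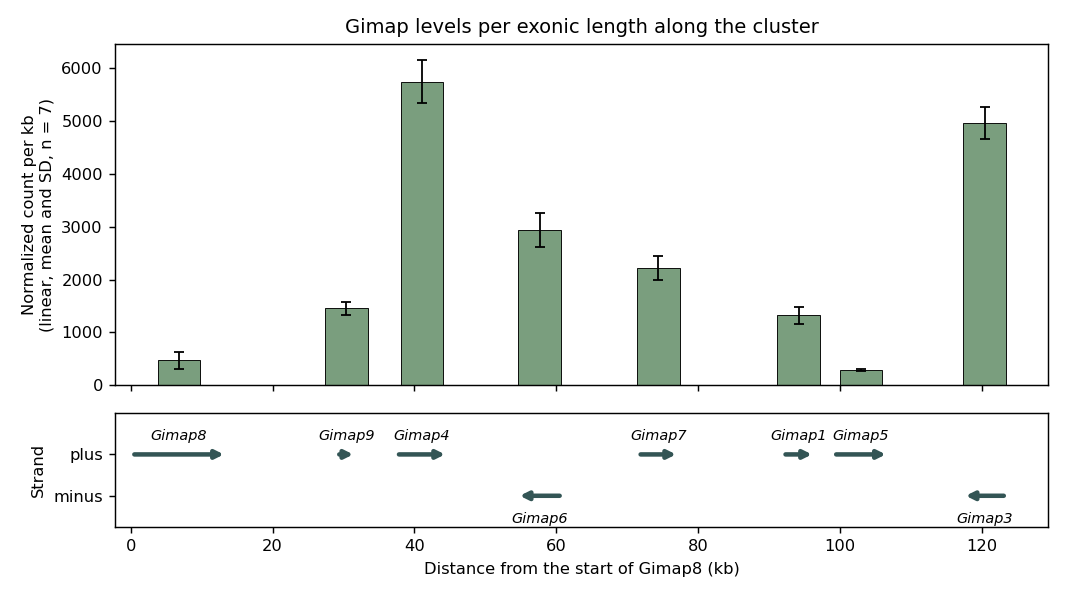
Mean normalized count per kb of exonic length (linear axis, bars, with SD over 7 libraries) for each Gimap gene at its position along the cluster, with gene extents and strands underneath (x axis, distance from the start of Gimap8 in kb). Gimap4 (5749 per kb) and Gimap3 (4963 per kb) stand highest, and Gimap8 (467 per kb) and Gimap5 (282 per kb) lowest.

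Most steps of this order held in most libraries. Neighbours in it were compared within libraries, where the scaling cancels, by exact paired sign-flip permutation tests (two-sided, 128 sign patterns, smallest possible p 0.0156, adjusted over 7 pairs). Gimap3 exceeded Gimap6, Gimap6 exceeded Gimap7, Gimap7 exceeded Gimap9 and Gimap1 exceeded Gimap8 in 7 of 7 libraries, each with an adjusted exact p of 0.0273. Mean log2 differences of these pairs were 0.76 (SD 0.15), 0.41 (SD 0.07), 0.60 (SD 0.17) and 1.58 (SD 0.75). Gimap4 exceeded Gimap3 by 0.21 (SD 0.15) in 6 of 7 libraries (adjusted exact p = 0.0438). Gimap9 and Gimap1 did not differ beyond their spread (mean difference 0.14, SD 0.25, 5 of 7 libraries, adjusted exact p = 0.203), nor did Gimap8 and Gimap5 (0.64, SD 0.63, 6 of 7 libraries, adjusted exact p = 0.0547). The place of some neighbours depends on the length used. With coding length Gimap3 led Gimap4 by 0.40, Gimap1 led Gimap9 by 0.72 and Gimap5 led Gimap8 by 0.68. With the longest annotated transcript Gimap7 led Gimap6 by 0.33, in 7 of 7 libraries (adjusted exact p = 0.0219). An opposite order can thus pass the same test. These p-values reflect scatter between libraries at a given length, and not the uncertainty of the length.

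The genes that flank the cluster were far lower. Of the 3 nearest annotated protein-coding genes on each side, 4 were tested. Upstream, Zfp775 and AI854703 were at 15.0 and 11.5 normalized counts per kb. Downstream, Tmem176b and Tmem176a, which encode related membrane proteins, were at 111 and 43.7 per kb. Each of these lay below the lowest Gimap member. The next gene downstream, Aoc1, had a mean normalized count of 2.31 and fell under the filter.

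None of the 8 Gimap genes passed the test of a difference when Treg cells without Hpgd were set against WT. Differences are log2 fold changes on the log2(normalized count + 1) scale, KO minus WT, from a limma fit over all tested genes with Benjamini-Hochberg adjustment. All 8 estimates lay between -0.13 (Gimap5) and 0.12 (Gimap6), with 6 above and 2 below 0 and a median of 0.03 (4 and 4 without WT 2, median 0.0058). Over all tested genes 6106 of 11787 estimates were above 0, and the median was 0.01. The adjusted limma p was 0.9996 for each member. No tested gene passed the adjusted threshold of 0.05 (0% called). At an unadjusted limma p under 0.05 there were 211 tested genes (1.79%) and no Gimap gene, and with voom on the recovered reads 184 genes, with 0 passing after adjustment. The groups of libraries did not overlap for 3.65% of tested genes and for none of the 8 members.

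Among the members tied to lymphocyte survival, Gimap5 is needed for the upkeep of peripheral T cells. It read 1201, 1268, 1165 and 1224 in WT 1 to 4, against 1162, 977 and 1195 in KO 1 to 3. KO 2 was the lowest library and the other 2 KO libraries lay within or just below the WT range. The log2 fold change was -0.13 (SE 0.18, 95% interval -0.52 to 0.25), with means of 1215 ± 43.3 and 1111 ± 118. Its share of the family sum was 2.43% to 2.66% in WT and 2.09% to 2.40% in KO, so on this measure, looked at after the values had been seen, the groups did not overlap. This was so for 1 of the 8 members, and no test was made of it. The nearest libraries were KO 1 (2.40%, 95% Wilson interval 2.29% to 2.52%) and WT 4 (2.43%, 2.32% to 2.55%), whose intervals overlapped. In normalized counts the groups did not overlap for 3.65% of all tested genes. The counts of Gimap5 share sequence with Gimap3, and the part of this in the difference was not tested. Gimap3 outnumbered Gimap5 by 9.91 to 10.8 times in WT and by 10.7 to 12.5 times in KO, and the groups overlapped (exact permutation p = 0.0571, and 1.00 adjusted over 28 ratios; the smallest p of this design is 0.0286).

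Gimap3, a relative of Gimap5 whose protein is found at mitochondria, was the most abundant member in counts. It read 12845, 12909, 11549.6 and 13233 in WT 1 to 4, against 13987, 12176 and 12835 in KO 1 to 3. The highest library was 1.21 times the lowest, and the groups overlapped (log2 fold change 0.04, SE 0.20, 95% interval -0.40 to 0.48). Gimap1, which mature T and B cells need, read 3775, 5035, 3579.6 and 3804 in the WT libraries, against 4459, 3883 and 3922 in the KO libraries. WT 2 stood above every other library, and the KO libraries lay inside the WT range (log2 fold change 0.02, SE 0.19, 95% interval -0.39 to 0.44).

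Gimap4 is linked to the timing of T cell death and Gimap6 to autophagy. Gimap4 read 11079, 9340.2, 10630.1 and 11077 in the WT libraries, against 9948, 10343 and 11504 in the KO libraries. WT 2 was lowest, KO 3 highest, and the means of 10532 ± 822 and 10598 ± 809 were nearly the same (log2 fold change 0.01, SE 0.20, 95% interval -0.42 to 0.44). Gimap6 read 9612, 10458, 8387 and 11093 in the WT libraries, against 9845, 10461 and 11962 in the KO libraries. WT 3 was lowest and KO 3 highest, and 2 of 3 KO libraries lay inside the WT range (log2 fold change 0.12, SE 0.21, 95% interval -0.32 to 0.57).

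Gimap7, which can speed GTP hydrolysis by other family members, read 4897, 5709, 4171 and 5202 in the WT libraries, against 5043, 5235 and 5734 in the KO libraries. The KO libraries sat in the upper part of the WT range or just above it (log2 fold change 0.10, SE 0.19, 95% interval -0.31 to 0.52). Gimap9 read 2390.4, 2213, 2321 and 2655 in the WT libraries, against 2214, 2260.4 and 2707 in the KO libraries. Its means of 2395 ± 188 and 2394 ± 272 were the closest of all members (log2 fold change -0.00316, SE 0.18, 95% interval -0.39 to 0.38).

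Gimap8 read 1716, 697, 2575 and 2009 in the WT libraries, against 1696, 1468 and 1942 in the KO libraries. WT 2 was lowest and WT 3 highest, so that the WT libraries enclosed all 3 KO libraries. The log2 fold change was 0.10 (SE 0.35, 95% interval -0.66 to 0.86), although the mean level was slightly lower in KO (1702 ± 237) than in WT (1749 ± 787). Without WT 2 the WT mean was 2100.0 ± 437 (SD, n = 3) and the log2 fold change -0.29 (SE 0.18), so 1 library set its sign.

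**Figure D2:**
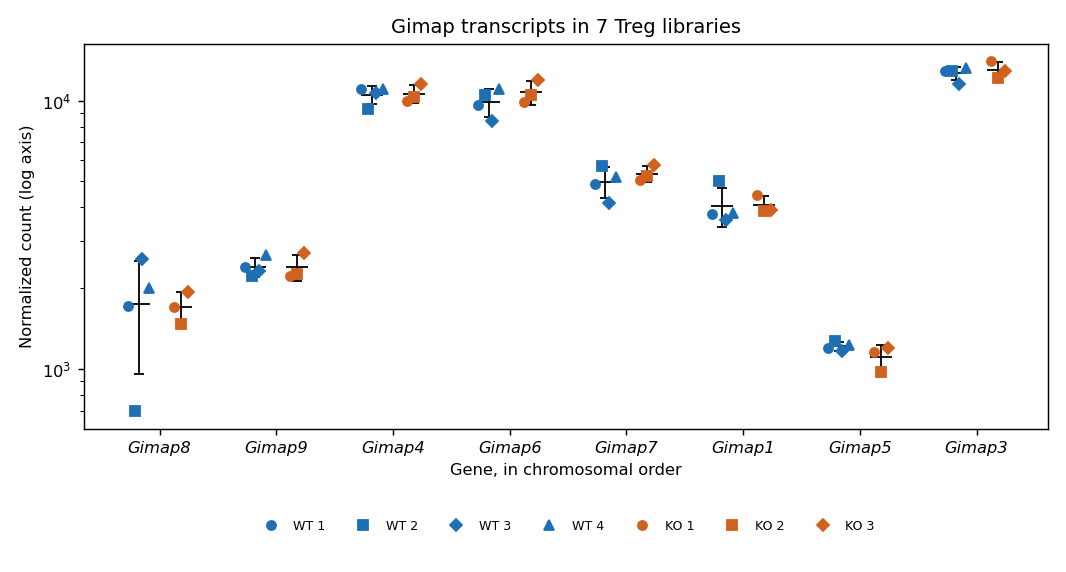
Normalized count (log axis) of each Gimap gene in the 4 WT (blue) and 3 KO (orange) libraries, with group means and SD as black bars, genes in chromosomal order. The groups overlap for every gene, and Gimap8 in WT 2 (697) lies far below its other libraries.

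The intervals give the range of differences that the limma fit allows. For 7 members the 95% interval ran from no lower than 0.699-fold (Gimap5) to no higher than 1.48-fold (Gimap6). For Gimap8 it ran from 0.633-fold to 1.81-fold. A test that misses its threshold does not show equal levels, and differences inside these intervals could not be told from 0 by this fit. The fit draws the variance of each gene toward that of genes of like abundance. Gimap3, for one, had an SE of 0.20 beside an SD of log2 values of 0.09 over the 7 libraries. The interval widths therefore do not rest on the scatter of the members alone.

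**Figure D3:**
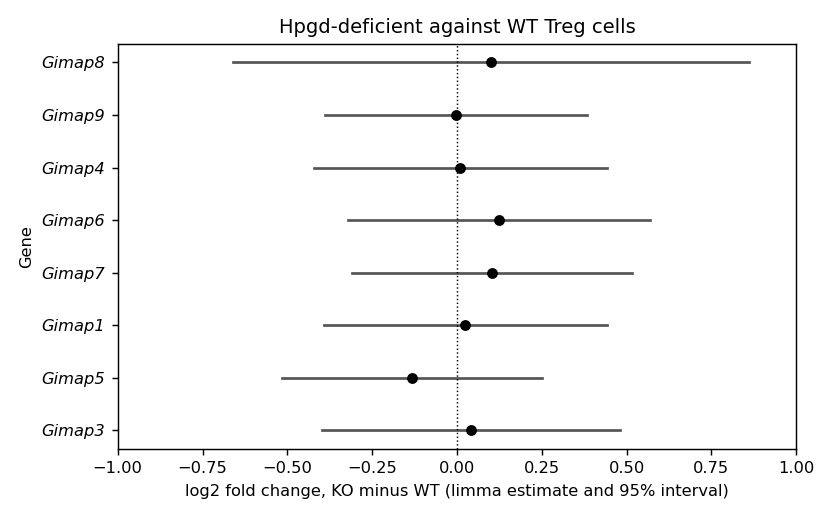
log2 fold change of each Gimap gene, KO minus WT (x axis, points), with 95% intervals from the limma fit (lines). Every interval covers 0, and the widest is that of Gimap8 (-0.66 to 0.86).

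Apart from Gimap8, the members varied little from library to library. The standard deviation of log2 values over the 7 libraries was 0.09 for Gimap3, 0.10 for Gimap4 and 0.12 for both Gimap5 and Gimap9. It was 0.16 for both Gimap6 and Gimap7 and 0.17 for Gimap1. The median was 0.40 over all tested genes and 0.27 over the 1565 genes with a mean of at least 1000, a level all 8 members reached. A larger value was found in 94.7% (Gimap1) to 99.8% (Gimap3) of tested genes, and in 84.4% to 99.1% of the abundant ones. For Gimap8 it was 0.59, which 28.9% of tested and 4.86% of abundant genes exceeded. Counting error was small beside these spreads. The average coefficient of variation from counting was 0.890% for Gimap3 and 2.94% for Gimap5, against 6.03% and 7.93% between libraries.

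WT 2 and WT 3 marked the ends of the Gimap8 range. Its 697 in WT 2 rests on 770 reads (95% exact Poisson interval 649 to 748), while the next lowest library was KO 2 at 1468. Gimap8 took 1.46% of family reads in WT 2 (95% Wilson interval 1.36% to 1.57%) and 5.80% in WT 3 (5.58% to 6.04%). In the other 5 libraries it took 3.14% to 3.99%. Gimap1 moved the other way in WT 2, at 10.6% of the family sum against 7.56% to 9.22% elsewhere. The ratio of Gimap1 to Gimap8 was 7.22 in WT 2, 1.39 in WT 3 and between 1.89 and 2.65 in the other 5 libraries. WT 2 is also the library with the largest share of ribosomal protein reads, and had the lowest weight when the fit weighted libraries (0.275). Genes outside the family departed there too, such as Ikzf2 (4832 against 9190 to 13872 elsewhere) and, upward, Cd4 (5769 against 3078 to 5107). The part of such library-wide departures in the Gimap values was not tested.

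**Figure D4:**
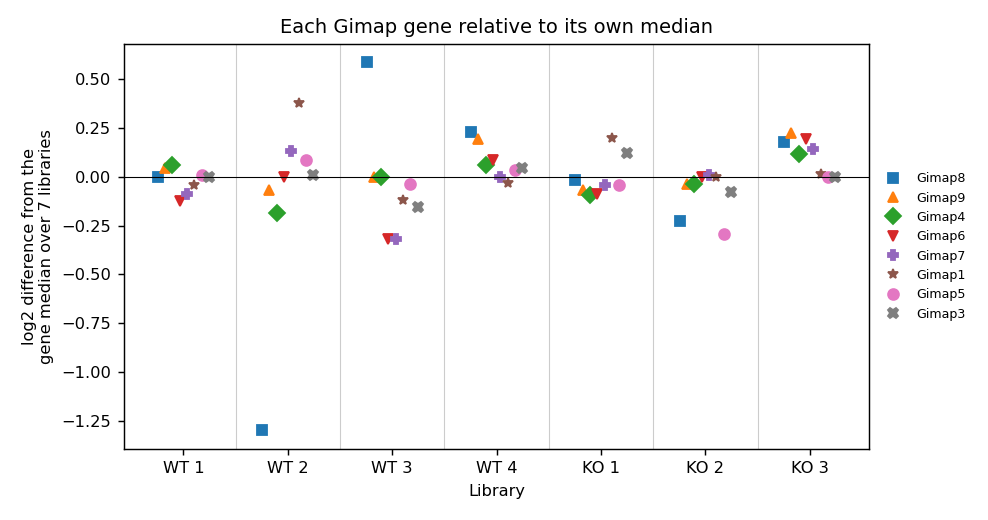
log2 difference of each Gimap gene from its own median over 7 libraries (y axis) in each library (x axis). Most points lie within a narrow band, Gimap8 reaches -1.30 in WT 2 and 0.59 in WT 3, and Gimap1 reaches 0.38 in WT 2.

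The members did not rise and fall as 1 unit over the libraries. Pairs were compared by correlation of log2 values over 7 libraries, with exact permutation over 5040 orders and adjustment over 28 pairs. The 28 values of Pearson's r ranged from -0.88 to 0.90 with a median of 0.24, and 18 were above 0. Over all pairs of tested genes the median was -0.00325 and 49.8% were above 0. Among the members the median was 0.0797 without KO 3, with 15 of 28 above 0, and 0.15 with total read scaling. The highest belonged to Gimap6 with Gimap7 (r = 0.90, exact permutation p = 0.00794, adjusted 0.144; Spearman's rho = 0.86, p = 0.0238, adjusted 0.333). Next came Gimap4 with Gimap9 (r = 0.85, exact permutation p = 0.0155, adjusted 0.144; rho = 0.96, p = 0.00278, adjusted 0.0778). The most opposed were Gimap1 with Gimap8 (r = -0.88, exact permutation p = 0.0139, adjusted 0.144; rho = -0.75, p = 0.0663, adjusted 0.493) and Gimap1 with Gimap4 (r = -0.82, exact permutation p = 0.0212, adjusted 0.149; rho = -0.54, p = 0.236, adjusted 0.825). None of the 28 pairs passed after adjustment.

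These relations were not all equally firm. Without the 2 libraries farthest from the median of the first gene named, r was 0.82 for Gimap4 with Gimap9, 0.55 for Gimap6 with Gimap7 and -0.75 for Gimap1 with Gimap8. Leaving out WT 2 alone took the last to -0.54, and Gimap1 with Gimap4 also to -0.54. Without both WT 2 and KO 1, r for Gimap1 with Gimap4 turned to 0.34, so that relation rested on these 2 libraries together. With each genotype centred on its own mean, r was 0.89 for Gimap6 with Gimap7, 0.85 for Gimap4 with Gimap9 and -0.89 for Gimap1 with Gimap8. All values of a library share its scaling, which can by itself raise r between genes with so little spread.

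**Figure D5:**
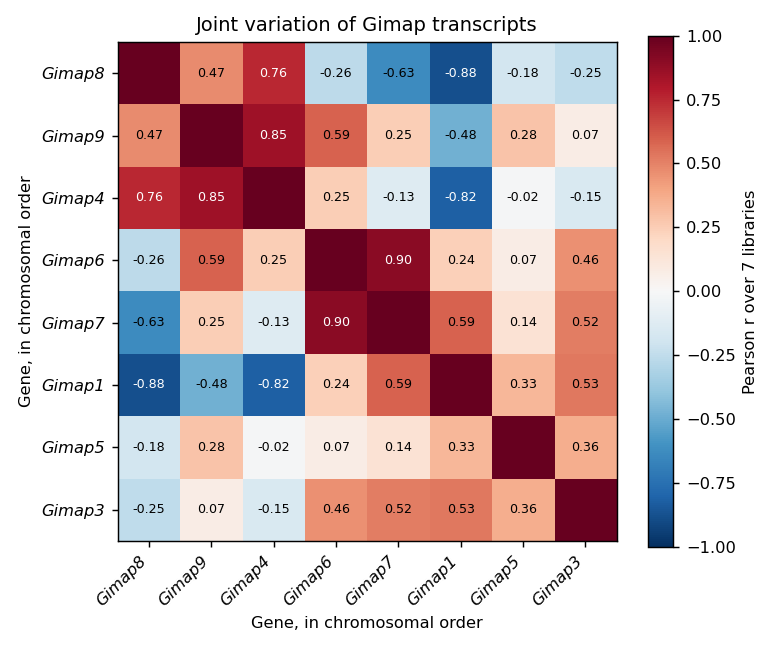
Pearson's r over 7 libraries for each pair of Gimap genes, in chromosomal order on both axes (colour scale from -1 to 1, values in the cells). Gimap6 with Gimap7 (0.90) and Gimap4 with Gimap9 (0.85) are the highest pairs, and Gimap1 with Gimap8 (-0.88) the lowest.

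Ratios within a library showed the same pairs as the steadiest. This follows from their small spreads and high r in the same libraries and is no separate evidence. Gimap4 exceeded Gimap9 by 4.17 to 4.64 times in counts, with an SD of the log2 ratio of 0.06, and Gimap6 exceeded Gimap7 by 1.83 to 2.13 times, with an SD of 0.07. Of the 28 ratios none separated WT from KO without overlap.

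Genes whose pattern was most like the mean log2 level of the 8 members were ranked by Pearson's r over the 7 libraries among 11077 named genes. The 5 highest were Fam92a (r = 0.98), Cdk5rap2 (0.97), Ube2d2a (0.97), Nek7 (0.97) and Nabp1 (0.97). The 2 most opposed were Bnip1 (-0.98) and Zdhhc8 (-0.97). These values were picked as extremes, so they describe the libraries and carry no test. In all 7 genes KO 3 and WT 4 lay at 1 end of the range. Of the members themselves, Gimap9 (0.90), Gimap4 (0.80) and Gimap8 (0.61) had the highest r with the family mean, and Gimap1 the lowest (-0.42). Each member is part of that mean, which by itself raises its r. Gimap8 weighs most in the mean, also in the ranking above. Its SD of log2 values was 0.59, against at most 0.17 for the other members.

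Other GTPase families were read beside the GIMAP genes. For scale, 6106 of all 11787 tested genes had higher estimates in KO. The interferon-inducible GTPases (guanylate-binding proteins and immunity-related GTPases), which attack vacuoles of intracellular microbes, had higher estimates in KO for 18 of 19 tested members. Their median log2 fold change was 0.23, and 0 passed. For Irgm2, at 972 ± 79.2 in WT and 1204 ± 222 in KO, the groups did not overlap, and Gbp10 was at 196 ± 64.1 and 267 ± 63.7. Without WT 2 the count was 17 of 19 and the median 0.09, and without KO 3 they were 19 of 19 and 0.17. Without both WT 2 and KO 3 they were 13 of 19 and 0.15. Septins, cytoskeletal GTPases, had 5 of 8 higher estimates with a median of 0.02, and 0 passed (6 of 8 and 0.07 without WT 2, 4 of 8 and -0.0277 without KO 3). Sept7 was at 2784 ± 731 and 3305 ± 659, and Sept8 at 42.3 ± 10.6 and 65.2 ± 24.96.

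Lists related to the family's setting also held no gene that passed. Of genes flanking the cluster 7 of 19 had higher estimates in KO (median -0.07), a count that became 15 of 19 without KO 3 (median 0.05). Kcnh2 was at 41.5 ± 17.2 and 19.0 ± 16.6, and Abcb8 at 90.8 ± 35.3 and 63.1 ± 42.6. Of T cell quiescence and lymph node homing genes 13 of 19 were higher (median 0.07), among them Igfbp4 at 123 ± 47.2 and 209.9 ± 74.0 and the chromatin organiser gene Satb1 at 1121 ± 362 and 1541 ± 293. Of BCL-2 family genes, which set the threshold for cell death, 10 of 15 were lower (median -0.10), and 9 of 15 without WT 2 (median -0.0300). The survival genes Bcl2a1d and Bcl2l1 were at 370.4 ± 116 and 271 ± 23.8, and at 168 ± 67.6 and 117 ± 54.3. Of interferon response genes 23 of 25 were lower (median -0.33), with Ifi27l2a at 5388 ± 3466 and 2955 ± 1171. Ifit2, at 172 ± 20.6 and 267 ± 83.9, was 1 of the 2 with higher estimates. Without WT 2 the count was 18 of 25 (median -0.10). Without both WT 2 and KO 3 the interferon response count was 13 of 25 and the median -0.05.

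Other lymphocytes and endothelium also express GIMAP genes, so markers of other cells were read in the same libraries. The Treg defining genes had 6 of 11 higher estimates in KO (median 0.02), and 10 of 11 without KO 3 (median 0.09), with Nrp1 at 2279 ± 531 and 2716 ± 331. Of 6 B cell markers 3 were listed, with a summed level of 320.1 to 751 in WT and 327 to 433 in KO. Most of that was Cd79b (496 ± 183 and 376 ± 52.8), while Ms4a1 had means of 7.57 and 5.98. The 6 natural killer and CD8 T cell markers summed to 143 to 252 in WT and 80.9 to 187 in KO, led by Cd8b1 (96.6 ± 21.4 and 72.8 ± 49.0) and Eomes (37.6 ± 16.4 and 20.5 ± 18.1). Ncr1 was at 15.5 ± 6.26 and 8.02 ± 7.63. Of the 5 tested, 3 had lower estimates in KO (median -0.64), and 1 of 5 did without both WT 2 and KO 3 (median 0.10). Ncr1, Klrd1, Cd8a and Eomes were at 0 in at least 1 library. Endothelial markers were represented by Pecam1 (305 ± 88.6 and 308 ± 73.4), which T cells also make, and Kdr (means of 3.36 and 6.35). Of 6 tested myeloid markers 4 had higher estimates in KO and 0 passed, with a median log2 fold change of 0.36 (0.54 without WT 2, 0.16 without KO 3). The 7 listed myeloid markers summed to 210.4 to 1531 in WT and 641 to 1669 in KO. The smallest p values were those of Itgam (15.9 ± 14.3 and 29.9 ± 8.04) and Adgre1 (37.1 ± 20.5 and 70.6 ± 51.5), and the most abundant were Lyz2 (786 ± 495 and 806 ± 415) and Csf1r (162 ± 74.2 and 114 ± 75.3). Cd14 was at 0 in at least 1 library. All 3 tested erythroid markers had lower estimates in KO and groups that did not overlap, against 3.65% without overlap among all tested genes. Of these markers 0 passed over all libraries and 2 without both WT 2 and KO 3. Hba-a1 was at 194 ± 128 and 13.5 ± 10.6, and Hba-a2 at 867 ± 552 and 108 ± 53.2. Alas2, the other listed marker, lay under the filter at 11.8 ± 6.34 and 6.44 ± 3.79, with overlap. Ribosomal protein genes had 79 of 81 lower estimates (median -0.32), and 61 of 81 without WT 2 (median -0.14), with Rplp2 at 2984 ± 971 and 1752 ± 259 and Rps21 at 1482 ± 418 and 884 ± 271. In bulk samples fewer cells of a type and less RNA per cell cannot be told apart.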

How the data were processed

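RNA (10 ng per library) was made into cDNA with SmartSeq2 and demultiplexed with bcl2fastq2 2.20, per the labels' protocols. Per the submitters' processing notes, the tools were kallisto 0.44, CASAVA 1.8, DESeq2, R 3.3.1 and Partek 6.6, with mm10 as the build, in no stated order or role. The deposited values are a normalized signal per gene. Once an offset of 1 was subtracted, 100% of the values of a library fell on multiples of 1 library-wide step (within 0.01), and the inverse of that step equals a median-of-ratios size factor. Reads were recovered by dividing by the step.

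Groups came from the sample titles. A filter kept genes whose mean was 10 or more. Their log2(normalized count + 1) values entered limma 3.58.1 (R 4.3.3), without covariates and with the prior allowed to follow abundance, and p-values were adjusted over all tested genes at 0.05. The code was tested on simulated data. The fit on log2 values is the main result because the deposited unit is a normalized signal, and voom (limma) on the recovered reads is an alternative. Permutation tests, intervals and figures used Python 3.11.15. Gene lengths and positions are from GENCODE M21, in which 15606 of 15815 symbols were found. The table gives septin genes as calendar dates, and these, like dots written for hyphens, were matched after the names had been seen.

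Named genes were the 8 members, Hpgd, the 5 most alike and 2 most opposed to the family mean, the 2 smallest p of each list, the nearest neighbours and the 2 most abundant markers of other cells. Members, lists and tests were chosen with earlier results of these data known. Alternatives covered pseudocount, scaling, filter, prior, weights, voom, the replicate number and each library.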

Additional observations from a re-analysis of the deposited data

Results flagged for a closer look

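Gimap1 in WT 2 lay far above the other 3 WT libraries, with a gap to the next that was 0.846 of the whole WT range (5035 against 3804 and lower). Its share of the family sum in WT 2 was set apart in the same way (10.6% against 7.56% to 8.07%, a gap of 0.833 of the range). The critical value for 4 samples is 0.829. In all 18 WT sets were checked, chance marks about 1 in 20, and the 2 values share 1 gene and 1 library.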

How the results depend on the processing

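The count of Gimap genes that passed was 0 under all 18 alternatives to the fit, and over all genes 4 passed with array weights, 4 without both WT 2 and KO 3 and 3 with the replicate number as a block, none of them a Gimap gene. Gimap5, Gimap6 and Gimap7 kept their sign in all 18, and the other 5 changed it in some. With array weights the log2 fold change was -0.0753 for Gimap4 and -0.23 for Gimap8, and without both WT 2 and KO 3 it was -0.11 and -0.39. With total read scaling Gimap9 was at 0.00393. Leaving out 1 library at a time gave -0.0396 to 0.13 for Gimap1, -0.0133 to 0.0867 for Gimap3, -0.0507 to 0.0541 for Gimap4, -0.29 to 0.34 for Gimap8 and -0.0947 to 0.05003 for Gimap9. For Gimap8 the library that turned the sign was WT 2. With the replicate block, Gimap1 was at -0.00107 and Gimap9 at 0.0475. The labels do not say what the numbers share. Deviations of same-numbered libraries from their group means had r of 0.01, -0.04 and 0.09 for numbers 1, 2 and 3. WT 1 correlated best with KO 2, and the highest r was that of WT 2 with KO 1 (0.20). So few values cannot show whether same-numbered samples share more than a number. The median r over 28 pairs was 0.15 with total read scaling, 0.23 with TMM, 0.30 with centred genotypes and 0.08 to 0.32 without 1 library.

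The order per length turned with the length itself. The mean log2 difference of Gimap4 over Gimap3 was -0.0276 with the longest annotated transcript, -0.40 with coding length and -0.0276 with the longest protein-coding transcript, a setting added after the data were seen. Gimap6 over Gimap7 was -0.33 with the first and the third. Gimap9 over Gimap1 was -0.54, -0.72 and -0.65. Gimap8 over Gimap5 was -0.68 with coding length and -0.22 with the longest protein-coding transcript. KO 3, with the fewest reads, held the highest value of Gimap4, Gimap6, Gimap7 and Gimap9, and depth limits Gimap5 most, with 650 reads there.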

Other observations

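After the pair values had been seen, pairs that are neighbours on the chromosome were set beside the rest. All 7 neighbouring pairs had an r above 0, from 0.25 (Gimap4 with Gimap6) to 0.90 (Gimap6 with Gimap7), with a median of 0.47. Of the 21 other pairs 11 were above 0, with a median of 0.07. With each genotype centred on its mean the medians were 0.61 and 0.08. Without WT 2 they were 0.44 and 0.28, with 6 of 7 and 13 of 21 pairs above 0, and with total read scaling 0.23 and 0.02, with 6 of 7 and 12 of 21. The pairs share genes and libraries, and no test was made of this difference. The neighbours Gimap5 and Gimap3 (r = 0.36) also share sequence, and the part of that in their r was not tested.

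The paired steps of Gimap6 and Gimap7 came from genes on opposite strands whose upstream windows, as searched here, shared no motif. Both were lowest in WT 3 and highest in KO 3, although Gimap7 was nearly as high in WT 2 (5709) as in KO 3 (5734). Gimap4 and Gimap9, on the same strand, also shared no motif, and both had their lowest value in WT 2 and their highest in KO 3. Most pairs shared none. Only the Runt core (Gimap1, Gimap4 and Gimap7) and the ETS motif (Gimap5 and Gimap9) occurred in more than 1 member. Among the pairs that shared one, r ranged from -0.82 (Gimap1 with Gimap4) to 0.59 (Gimap1 with Gimap7). A link between motifs and r was not tested. For Gimap9, WT 2 (2213) and KO 1 (2214) did not differ beyond counting error, nor did KO 3 (2707) and WT 4 (2655).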
